A study of Mus musculus with 10 samples.

Results

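The genes described here code for the secreted signals of the Wnt pathway and the proteins that receive or block them outside the cell. They are the Wnt ligands, the Frizzled receptors with the co-receptors Lrp5 and Lrp6, the R-spondins, and the secreted antagonists of the Sfrp, Frzb, Wif1 and Dkk families. Members were taken by gene symbol, without Wnt4 and Rspo1, which the rule leaves out. The rule itself goes by symbol and uses no measured value, and a gene with several probe sets is given by the one whose mean log2(signal + 16) over all arrays was highest. The rule found 44 of the 18193 genes on the array, namely 18 ligands, 12 receptors, 3 R-spondins and 11 antagonists, measured by 83 probe sets in all.

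The series follows the embryonic testis of the mouse from E11.5 to E18.5 (days of embryonic development), with E12.5, E14.5 and E16.5 in between, and has 2 Affymetrix Mouse430_2 arrays at each of these 5 stages. Pairs of array values are given in the order of replicate 1 and replicate 2. The 2 arrays of a stage came from separate testis preparations. All samples were total RNA of whole testis with no treatment named. The sources used here name no strain or number of embryos per preparation and do not say how the adjoining mesonephros was handled.

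Wnt proteins are lipid-modified and act mostly over short distances. They bind Frizzled receptors, and together with Lrp5 or Lrp6 this stabilises beta-catenin, which enters the nucleus and works with Tcf and Lef factors. Other Wnts, Wnt5a and Wnt11 among them, act largely without beta-catenin, on cell polarity and movement. R-spondins bind Lgr receptors and keep Frizzled proteins at the cell surface, whereas Sfrp, Frzb and Wif1 bind Wnts and most Dkk proteins block Lrp5 and Lrp6. In the mouse gonad, beta-catenin signalling driven by Wnt4 and Rspo1 promotes the ovary, and forced beta-catenin activity in the XY gonad disturbs the testis.

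The promoter sequences shown are those of the gene with the largest change, Dkk1, and of the 2 genes whose window held a searched motif, Wnt11 and Wnt5b. Each is the 250 bases before a transcription start, 5′ to 3′ on the gene's strand, from RefSeq on GRCm38.p6. Of the 13 members that changed over the stages, 8 had an entry in the promoter table, with 11 windows among them. Capitals mark a match to the TCF/LEF letters CTTTGAT, or ATCAAAG on the other strand, the kind of site bound by the nuclear partners of beta-catenin. Lower-case letters hold no match.
Dkk1 (chr19:30549497-30549746, minus strand): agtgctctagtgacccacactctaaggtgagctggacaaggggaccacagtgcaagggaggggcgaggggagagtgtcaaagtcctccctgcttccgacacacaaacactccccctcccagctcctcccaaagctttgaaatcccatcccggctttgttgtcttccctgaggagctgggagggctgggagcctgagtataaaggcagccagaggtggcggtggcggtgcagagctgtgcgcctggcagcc
Wnt11, window 1 (chr7:98834862-98835111, plus strand): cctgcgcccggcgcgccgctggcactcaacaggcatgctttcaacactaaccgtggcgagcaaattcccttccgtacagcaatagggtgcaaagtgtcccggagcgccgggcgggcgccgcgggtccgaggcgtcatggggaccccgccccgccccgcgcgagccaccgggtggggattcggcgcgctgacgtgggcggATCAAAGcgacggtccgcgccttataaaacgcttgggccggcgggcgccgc
Wnt5b, window 3 (chr6:119449387-119449636, minus strand): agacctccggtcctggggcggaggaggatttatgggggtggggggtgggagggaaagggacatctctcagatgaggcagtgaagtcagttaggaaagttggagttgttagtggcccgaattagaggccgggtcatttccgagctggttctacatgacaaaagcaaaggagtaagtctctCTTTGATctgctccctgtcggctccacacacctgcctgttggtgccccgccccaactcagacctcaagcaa
As printed, the match in Wnt11, on the other strand, began 51 bases before the start, and that in Wnt5b, on the gene's own strand, began 71 bases before it. The same letters occurred in 3.21% of the 32851 windows of the whole table. No window of the 8 genes held the SOX letters CCATTGT (other strand ACAATGG), found in 3.02% of all windows, or the NR5A1 letters AAGGTCA (other strand TGACCTT), found in 4.08%. A match is a string of letters and was not shown to be bound.

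Every array had been scaled to the same trimmed mean of 125, and the median signal ran from 35.2 to 57.7, with the highest value on E14.5 replicate 1. The ratio of the 3′ to the 5′ beta-actin probe sets, a sign of RNA integrity, lay between 1.57 and 2.03 at E11.5 and E12.5, at 1.64 and 2.50 at E14.5, at 2.61 and 2.60 at E16.5 and at 1.87 and 2.62 at E18.5. The file headers put E14.5 on scanning day 1, E12.5 and E16.5 on day 2, and E11.5 and E18.5 on day 3. Each step between neighbouring stages therefore cannot be told apart from a scanning day, whereas E18.5 against E11.5 and E16.5 against E12.5 each lie within 1 day. Fluidics modules 1 and 2 served the stages up to E14.5, and modules 3 and 4 served E16.5 and E18.5, so module and stage cannot be told apart in E16.5 against E14.5 or in the 2 within-day comparisons. The part of RNA integrity and of fluidics module in the results was not tested. Sertoli cell markers had a summed signal over 8 genes of 1243 and 1370 at E11.5 and of 6345 and 7304 at E12.5. The E12.5 sum came mostly from Aard and Cst9, with means there of 2350 and 2285. Sox9, also in the list, went the other way, with means of 199 at E11.5 and 133 at E12.5. In whole organs, fewer cells of a type and less RNA per cell cannot be told apart.

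Among the 24 members bright enough to be tested, 13 changed over the 5 stages, with 34.7% of all 10916 tested genes passing the same test. The test was limma's moderated F test on log2(signal + 16), two-sided with Benjamini-Hochberg adjustment over all tested genes and a threshold of 0.05. It left out genes under the 40th percentile of mean signal, which removed 20 members. Of the genes that changed, 4 were ligands, 3 were receptors and 6 were antagonists. The antagonists Dkk1, Sfrp1 and Sfrp2 had the smallest adjusted p, 9.98e-06, 7.4e-05 and 0.000134. Because 16 was added to every signal, fold changes of dim genes are understated, and errors of log2 changes are standard errors of the fit.

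**Figure D1:**
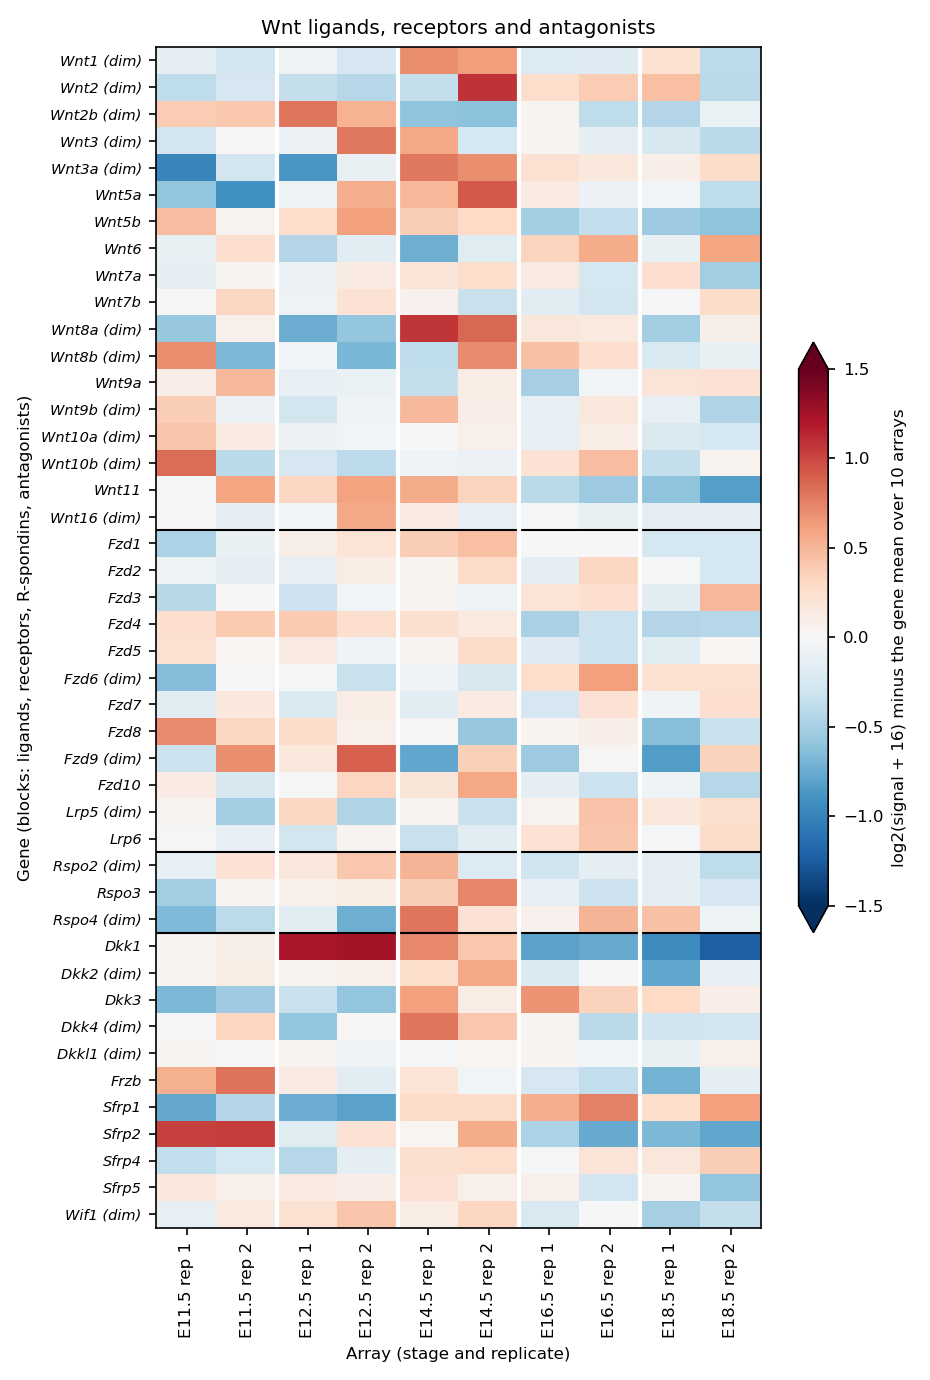
The colour of each cell is log2(signal + 16) of 1 gene on 1 array minus that gene's mean over the 10 arrays, with genes in blocks by role and arrays in stage order. Genes marked dim fell below the filter and were not tested. The pair of Dkk1 cells at E12.5 and the pair of Sfrp2 cells at E11.5 stand above the rest of their rows.

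The calls were spread unevenly over the period. From E11.5 to E12.5, Dkk1 and Wnt5a rose and Sfrp2 fell, with 3.27% of all tested genes called, 1.95% higher and 1.32% lower. From E12.5 to E14.5, Sfrp1 and Dkk3 rose and no member fell, against 5.26% of all genes called, 3.53% higher and 1.73% lower. From E14.5 to E16.5, 5 members fell (Dkk1, Sfrp2, Wnt11, Wnt5b and Fzd4), against 3.12% of all genes called lower, and Wnt6 alone rose, against 7.7% called higher. Both directions together held 6 of 24 members and 10.8% of all genes. In this step the median log2 change of the tested members was -0.27, and that of all tested genes was 0.05. No member was called from E16.5 to E18.5, where 0.0183% of all genes passed in limma's test, 0.00916% in each direction. Without adjustment 1 of the 24 members was under 0.05 in that step, Fzd8 (-0.55 ± 0.26), against 4.93% of all tested genes, a like share.

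Over the whole period, E18.5 against E11.5, 3 members rose (Sfrp1, Dkk3 and Sfrp4) and 7 fell (Sfrp2, Dkk1, Frzb, Wnt11, Fzd8, Wnt5b and Fzd4). Of all tested genes, 17.1% were called higher and 11% lower, 28.2% in all. Between E12.5 and E16.5, Sfrp1, Dkk3 and Wnt6 rose and Dkk1, Wnt11, Wnt5b, Fzd4 and Sfrp2 fell, with 27.1% of all genes called, 16.8% higher and 10.2% lower. The median log2 change of the tested members was -0.06 over the whole period and -0.18 from E12.5 to E16.5, and that of all tested genes was 0.02 and 0.06. With only the 4 arrays of a comparison, which share a scanning day, 9 of the 10 calls remained in the first comparison, Sfrp4 being lost at adjusted p = 0.0509. All 8 remained in the second. In each of the 29 contrast calls the 2 arrays of one stage lay wholly above the 2 of the other. This adds no support to the calls, since contrasts that did not pass also had it, such as Fzd1 in each step between neighbouring stages. Its share over all genes was not counted.

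**Figure D2:**
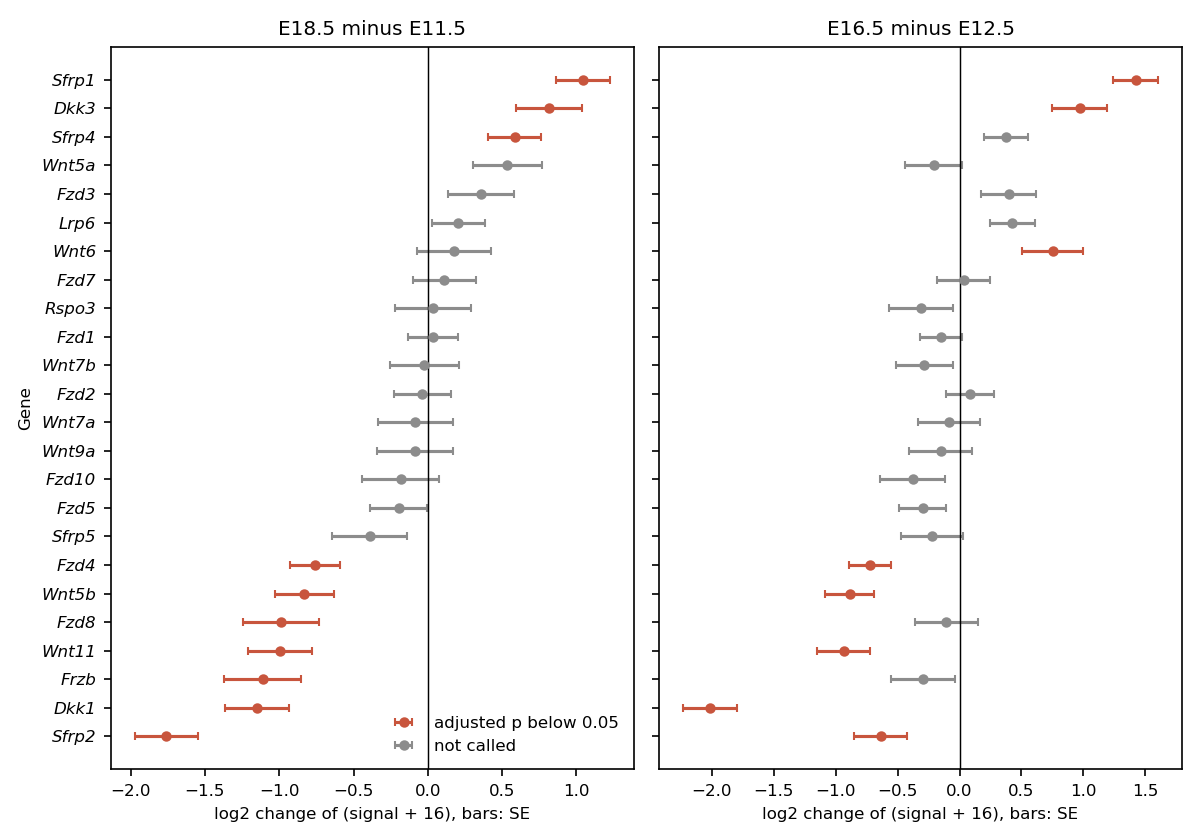
Points are log2 changes of (signal + 16) with standard errors for the 24 tested members in the 2 comparisons that lie within a scanning day, and red points have an adjusted p below 0.05. In both panels Sfrp1 and Dkk3 lie to the right and Dkk1, Sfrp2, Wnt11, Wnt5b and Fzd4 to the left.

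Single arrays carried part of these counts. The 3 calls from E11.5 to E12.5 became 0 without E11.5 replicate 1, and 1 without E11.5 replicate 2, E12.5 replicate 1 or E12.5 replicate 2. The 2 calls from E12.5 to E14.5 became 1 without either E12.5 array, E14.5 replicate 1, or any array of E16.5 or E18.5. The 6 calls from E14.5 to E16.5 became 1 without E16.5 replicate 2, 2 without E14.5 replicate 1 or E16.5 replicate 1, and 3 without E14.5 replicate 2. The 10 calls over the whole period became 6 without E11.5 replicate 1 or E18.5 replicate 1. The 8 calls from E12.5 to E16.5 became 4 without E12.5 replicate 2 or E16.5 replicate 1, and 5 without E16.5 replicate 2. Of the 29 contrast calls, 9 were kept under every alternative that tested the gene. These were Sfrp1 and Dkk1 between E12.5 and E16.5, Sfrp1 from E12.5 to E14.5, Dkk1 from E14.5 to E16.5, and Dkk1, Sfrp1, Sfrp2, Wnt11 and Fzd4 over the whole period.

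Wnt5a is the ligand best known for acting without beta-catenin, on cell polarity and outgrowth. The Wnt5a signal was 402.7 and 321.9 on the E11.5 arrays, 581.4 and 904.4 on the E12.5 arrays, 875.8 and 1179.6 on the E14.5 arrays, 674.4 and 580.6 on the E16.5 arrays and 597.8 and 468.7 on the E18.5 arrays. On this probe set, signals were lowest at E11.5, highest at E14.5 and intermediate afterwards, and no array of another stage fell as low as either E11.5 array. The other probe sets of Wnt5a differed in this. One had 237.1 and 238.4 at E11.5 and 156.0 and 189.5 at E18.5, and a dim one 35.9 and 38.6 against 31.6 and 34.9. The remaining one was lowest at E11.5, at 95.1 and 109.3. From E11.5 to E12.5 Wnt5a rose 1.97-fold (0.98 ± 0.23 on the log2 scale, adjusted p = 0.0316). That call was lost without E12.5 replicate 2 (adjusted p = 0.305), E11.5 replicate 2 (0.135), E11.5 replicate 1 (0.0602), E16.5 replicate 1 (0.0508) or E16.5 replicate 2 (0.0506), without the filter (0.0771) and with the arrays of the 2 stages alone (0.118). The E14.5 level was not held in the values at E16.5, but the change of -0.69 ± 0.23 did not pass (adjusted p = 0.0724). It did pass after quantile normalization (0.0334), with the mean of the gene's probe sets (0.0154) and with the 2 stages alone (0.0300). The E18.5 mean of 533 was above the E11.5 mean of 362, and this difference did not pass either (0.54 ± 0.23, adjusted p = 0.0994).

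Wnt5b is the close relative of Wnt5a. The Wnt5b signal was 163.4 and 118.2 on the E11.5 arrays, 139.4 and 182.3 on the E12.5 arrays, 151.0 and 143.0 on the E14.5 arrays, 74.2 and 84.3 on the E16.5 arrays and 73.2 and 69.2 on the E18.5 arrays. The 6 arrays up to E14.5 lay above the 4 later ones. Wnt5b fell 1.71-fold from E14.5 to E16.5 (-0.78 ± 0.20, adjusted p = 0.0244), 1.85-fold from E12.5 to E16.5 (-0.88 ± 0.20, adjusted p = 0.00521) and 1.78-fold over the whole period (-0.83 ± 0.20, adjusted p = 0.00649). The first call was lost without E14.5 replicate 1 (0.136), E14.5 replicate 2 (0.0567), E16.5 replicate 1 (0.128) or E16.5 replicate 2 (0.125), without the filter (0.0552) and with the mean of the gene's probe sets (0.225). The second was lost without E12.5 replicate 2 (0.0570) and the whole-period call without E11.5 replicate 1 (0.0732).

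Wnt11 is another ligand of the branch without beta-catenin and acts in cell movements of the early embryo and in kidney branching. The Wnt11 signal was 140.7 and 223.8 on the E11.5 arrays, 182.3 and 227.3 on the E12.5 arrays, 218.3 and 184.9 on the E14.5 arrays, 104.8 and 93.2 on the E16.5 arrays and 89.3 and 74.1 on the E18.5 arrays. The later 4 arrays again lay below the earlier 6, of which E11.5 replicate 1 was the lowest. Wnt11 fell 1.99-fold over the whole period (-0.99 ± 0.21, adjusted p = 0.00353), and this call was kept without each single array. The falls of 1.89-fold from E14.5 to E16.5 (-0.92 ± 0.21, adjusted p = 0.0168) and 1.91-fold from E12.5 to E16.5 (-0.94 ± 0.21, adjusted p = 0.00603) were less stable. The former was lost without E14.5 replicate 1 (0.135), E16.5 replicate 1 (0.0596) or E16.5 replicate 2 (0.161), and the latter without E12.5 replicate 2 (0.0532) or E16.5 replicate 2 (0.0624). The Wnt11 and Wnt5b windows with the TCF/LEF letters, printed at the start, belong to these genes that fell together. The windows of Dkk1, Sfrp2, Frzb and Fzd4, which fell too, did not hold those letters. Fzd8 fell over the whole period as well, and its promoter was not searched.

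Wnt6, a ligand made by many embryonic epithelia, went the other way. The Wnt6 signal was 287.3 and 373.0 on the E11.5 arrays, 225.4 and 274.0 on the E12.5 arrays, 181.3 and 273.6 on the E14.5 arrays, 395.6 and 466.0 on the E16.5 arrays and 288.1 and 479.0 on the E18.5 arrays. On this probe set both E16.5 arrays lay above all arrays of the earlier stages. The E18.5 arrays were far apart, and one of them fell within the earlier range. The other probe set of Wnt6 was also highest at E16.5 (133.3 and 167.8) but had no low point at E14.5. It had 70.4 and 92.3 at E11.5, 109.7 and 122.7 at E14.5, and 110.3 and 133.6 at E18.5. Wnt6 rose 1.86-fold from E14.5 to E16.5 (0.90 ± 0.25, adjusted p = 0.0345) and 1.68-fold from E12.5 to E16.5 (0.75 ± 0.25, adjusted p = 0.0381). E18.5 did not differ from E11.5 in the test (0.18 ± 0.25, adjusted p = 0.642). The first rise was lost without E14.5 replicate 1 (0.286), E16.5 replicate 1 (0.0848) or E16.5 replicate 2 (0.250), without the filter (0.0665) and with the mean of probe sets (0.0805). The second was lost without E12.5 replicate 1 (0.212), E12.5 replicate 2 (0.0589), E16.5 replicate 1 (0.0749) or E16.5 replicate 2 (0.218), without the filter (0.0734) and after quantile normalization (0.0604). The change over the 5 stages (adjusted p = 0.0445) was lost without either E12.5 array (0.0894 and 0.0537), E14.5 replicate 1 (0.129) or either E16.5 array (0.0813 and 0.143), with a pseudocount of 1 (0.0511), without the filter (0.0885), after quantile normalization (0.0608), with the mean of probe sets (0.0689) and with no variance trend (0.0606).

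The other 3 tested ligands, Wnt7a, Wnt7b and Wnt9a, did not pass over the 5 stages, with adjusted p of 0.729, 0.524 and 0.292. Wnt7a lay between 52.1 and 100.9 with a median of 87.6, Wnt7b between 51.5 and 88.8 with a median of 68.4, and Wnt9a between 35.1 and 85.1 with a median of 57.4. Wnt7a is best known from limb and oviduct patterning and Wnt7b from lung and kidney. For none of the 3 genes did both arrays of a stage lie above or below all others.

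**Figure D3:**
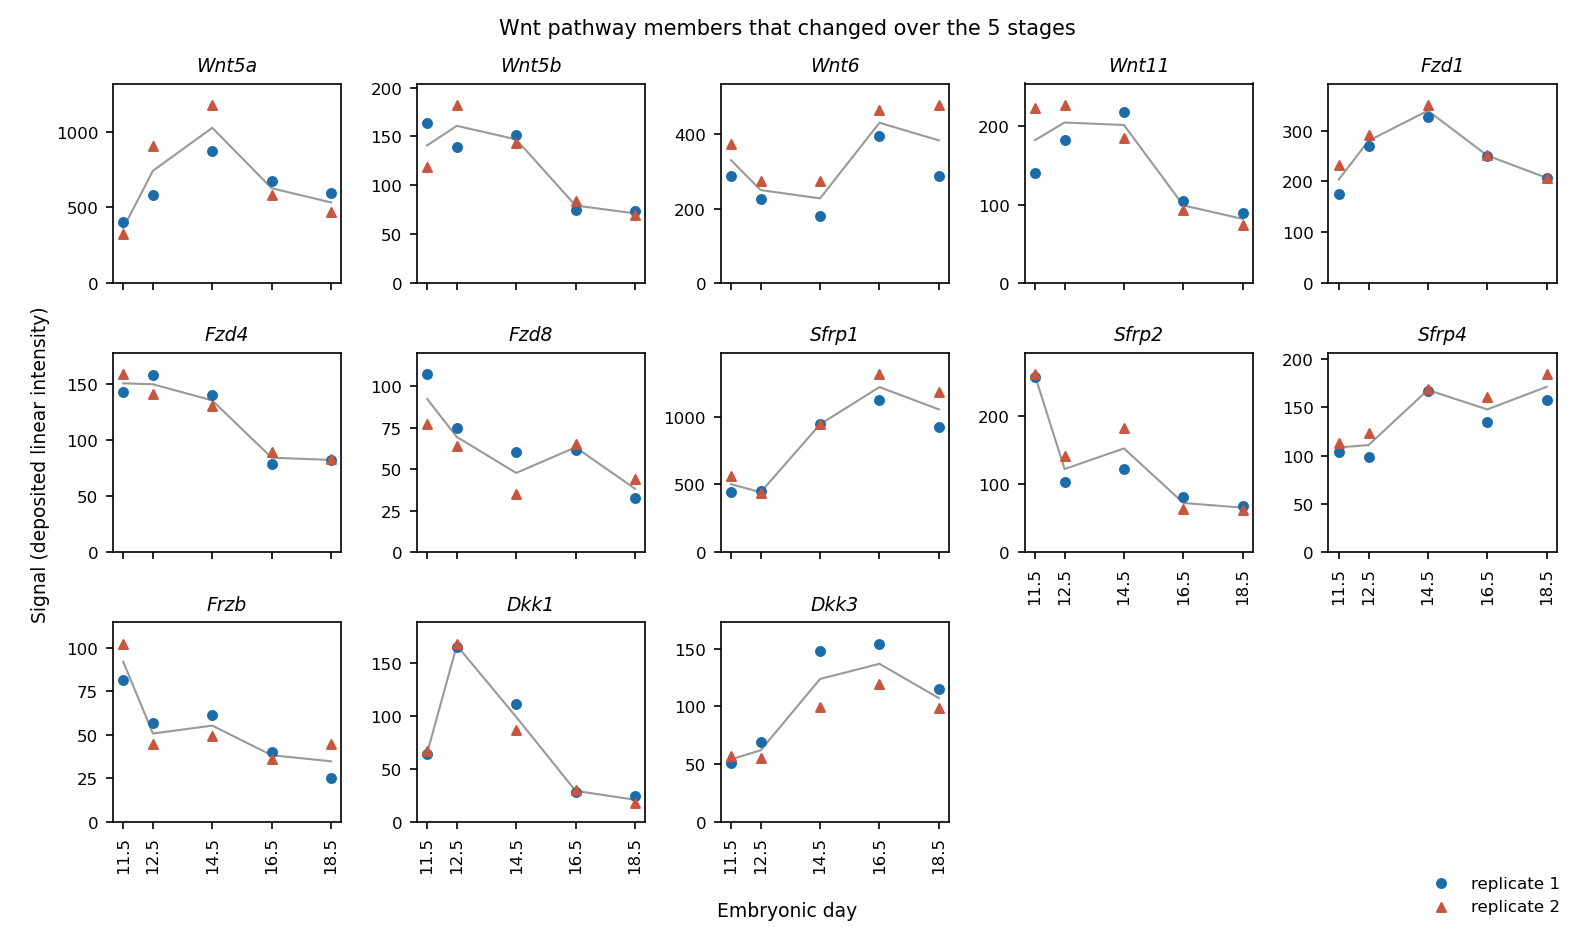
Deposited signal (linear, from 0) against embryonic day for the 13 members that changed over the 5 stages, with circles for replicate 1, triangles for replicate 2 and a line through the stage means. On the probe sets shown, Wnt5b, Wnt11 and Fzd4 have 6 early arrays above 4 late ones. On these probe sets Sfrp1 and Dkk3 show the reverse between E12.5 and E14.5, and Dkk1 has its highest stage at E12.5.

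Fzd4 is a receptor for Wnts and for Norrin, known for its part in retinal blood vessels. The Fzd4 signal was 142.7 and 158.9 on the E11.5 arrays, 158.3 and 141.5 on the E12.5 arrays, 140.4 and 130.6 on the E14.5 arrays, 78.9 and 89.9 on the E16.5 arrays and 82.0 and 82.8 on the E18.5 arrays. The 4 late arrays lay below the 6 early ones with no overlap. Fzd4 fell 1.69-fold over the whole period (-0.76 ± 0.17, adjusted p = 0.00463), and this call held in every alternative that tested it. It fell 1.65-fold from E12.5 to E16.5 (-0.72 ± 0.17, adjusted p = 0.00712), which did not hold without E12.5 replicate 1 (0.0718) or E16.5 replicate 1 (0.0598). The fall of 1.51-fold from E14.5 to E16.5 (-0.59 ± 0.17, adjusted p = 0.0411) was lost in every fit without an array of E12.5 (0.0561 and 0.0555), E14.5 (0.188 and 0.0712), E16.5 (0.193 and 0.163) or E18.5 (0.0552 and 0.0554), without the filter (0.0733) and with the 2 stages alone (0.0612). The changes of the other probe sets of Fzd4 had the same sign, and in that step their changes were -0.82 or lower. One of them had replicates far apart up to E14.5, such as 376.0 and 116.8 at E11.5 and 281.0 and 86.1 at E14.5. The other was dim, between 9.7 and 38.6.

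Fzd8 is a receptor studied mainly in the head and kidney of the embryo. The Fzd8 signal was 107.3 and 77.5 on the E11.5 arrays, 75.1 and 63.9 on the E12.5 arrays, 60.7 and 34.9 on the E14.5 arrays, 61.4 and 65.1 on the E16.5 arrays and 32.6 and 44.1 on the E18.5 arrays. The E11.5 arrays were the highest and the E18.5 arrays were low, with E14.5 replicate 2 among them. Fzd8 fell 1.99-fold over the whole period (-0.99 ± 0.26, adjusted p = 0.0105), which did not hold without E11.5 replicate 1 (0.0975) or E18.5 replicate 1 (0.0861). Its change over the 5 stages passed narrowly (adjusted p = 0.0436) and was lost without E11.5 replicate 1 (0.139), either E12.5 array (0.0755 and 0.0581), either E16.5 array (0.0760 and 0.0836) or either E18.5 array (0.134 and 0.0682), with a pseudocount of 1 (0.0535), without the filter (0.0927) and with the mean of probe sets (0.139).

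Fzd1 is a receptor that can signal through beta-catenin. The Fzd1 signal was 176.0 and 231.2 on the E11.5 arrays, 268.8 and 290.7 on the E12.5 arrays, 327.6 and 350.5 on the E14.5 arrays, 250.3 and 251.3 on the E16.5 arrays and 207.2 and 206.6 on the E18.5 arrays. The values formed a hump with its top at E14.5, and E18.5 lay within the range of E11.5. Fzd1 changed over the 5 stages (adjusted p = 0.0202), but none of the 6 stage comparisons passed, the nearest being E16.5 against E14.5 (-0.41 ± 0.17, adjusted p = 0.131), which passed with the mean of probe sets (0.0352). The change over the stages was lost without E14.5 replicate 1 (0.0539) or E14.5 replicate 2 (0.0707).

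The other 6 tested receptors did not pass over the 5 stages. Fzd7, a receptor found in many embryonic tissues, had the largest adjusted p of the 24, with values from 169.9 to 248.2 with a median of 209.6 (adjusted p = 0.966), and its change over the whole period was 0.11 ± 0.21. Fzd2 ran from 272.5 to 411.9 (median 318.9, adjusted p = 0.569), Fzd3, known from axon guidance, from 235.7 to 456.6 (median 317.4, adjusted p = 0.365), Fzd5 from 73.0 to 117.8 (median 97.1, adjusted p = 0.352) and Fzd10 from 34.3 to 85.3 (median 49.9, adjusted p = 0.230). Lrp6, the co-receptor that Dkk1 blocks, ran from 279.8 to 479.9 with a median of 351.5. Its E16.5 arrays, at 416.4 and 479.9, were above both E14.5 arrays, at 279.8 and 316.3, but the change of 0.56 ± 0.18 did not pass (adjusted p = 0.0615). It passed with the 2 stages alone (0.0479) and with replicate number as a block (0.0254). Lrp5 was too dim to be tested.

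Of the R-spondins, only Rspo3 was tested. The Rspo3 signal was 30.3 and 52.3 on the E11.5 arrays, 53.8 and 55.8 on the E12.5 arrays, 69.5 and 94.4 on the E14.5 arrays, 45.0 and 37.4 on the E16.5 arrays and 43.7 and 39.7 on the E18.5 arrays. The E14.5 arrays were the highest and the E12.5 arrays came next, above every array of the remaining stages, which overlapped. Rspo3 did not pass over the 5 stages (adjusted p = 0.0869) or from E14.5 to E16.5 (-0.77 ± 0.26, adjusted p = 0.0713). It passed over the stages without E11.5 replicate 2 (0.0375) and with no variance trend (0.0370). The step to E16.5 passed without E11.5 replicate 1 (0.0440) or E11.5 replicate 2 (0.0463) and with no variance trend (0.0374). Rspo2 and Rspo4 were dim, with highest values of 75.6 and 51.9.

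Among the antagonists, Dkk1, the blocker of Lrp5 and Lrp6, had the largest change of any tested member in the 6 comparisons. The Dkk1 signal was 63.4 and 66.2 on the E11.5 arrays, 164.3 and 168.0 on the E12.5 arrays, 111.2 and 86.4 on the E14.5 arrays, 28.3 and 29.8 on the E16.5 arrays and 24.1 and 17.1 on the E18.5 arrays. On this probe set both E12.5 arrays lay above all others, and the 4 arrays of E16.5 and E18.5 lay below all others. The other probe set of Dkk1 was dim and had no top at E12.5, with 34.6 and 35.6 there and 36.0 and 36.1 at E14.5. Its arrays of E16.5 and E18.5 were also the lowest. Its change was 0.49 from E11.5 to E12.5 and -0.40 over the whole period. Dkk1 rose 2.25-fold from E11.5 to E12.5 (1.17 ± 0.22, adjusted p = 0.00729), then fell 2.53-fold from E14.5 to E16.5 (-1.34 ± 0.22, adjusted p = 0.00249). Between E12.5 and E16.5 it fell 4.04-fold (-2.02 ± 0.22, adjusted p = 2.0e-05, with a change of -1.31 under a pseudocount of 64), and E18.5 lay 2.22-fold below E11.5 (-1.15 ± 0.22, adjusted p = 0.00140). All 3 falls were kept in every alternative that tested the gene, whereas the rise was lost without E11.5 replicate 1 (0.05002), E12.5 replicate 1 (0.0576) or E12.5 replicate 2 (0.0837). The step from E12.5 to E14.5 did not pass (-0.67 ± 0.22, adjusted p = 0.0881) but did with a pseudocount of 64 (0.0401), quantile normalization (0.0370) or no variance trend (0.0471). The promoter window printed for Dkk1 is the only one listed for this gene and held none of the searched letters.

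Sfrp1, a soluble Frizzled-like protein that binds Wnts, rose. The Sfrp1 signal was 443.1 and 560.2 on the E11.5 arrays, 452.3 and 433.8 on the E12.5 arrays, 943.4 and 943.8 on the E14.5 arrays, 1123.0 and 1312.9 on the E16.5 arrays and 923.9 and 1183.2 on the E18.5 arrays. On this probe set all 6 arrays from E14.5 on lay above all 4 earlier ones. Another probe set had the same split, with at most 489.3 before E14.5 and at least 785.7 from then on. On the remaining ones early and late arrays overlapped. One of these had 210.0 and 260.7 at E11.5, 668.9 and 326.7 at E14.5 and 217.9 and 277.7 at E16.5. Sfrp1 rose 2.09-fold from E12.5 to E14.5 (1.06 ± 0.18, adjusted p = 0.00377), 2.68-fold from E12.5 to E16.5 (1.42 ± 0.18, adjusted p = 9.1e-05) and 2.06-fold over the whole period (1.05 ± 0.18, adjusted p = 0.000717). These calls were kept in every alternative that tested the gene. One of the other 4 probe sets of Sfrp1 had a whole-period change of -0.07, and in the 2 other comparisons all 4 had changes between 0.24 and 1.25 on the log2 scale. In the mouse, loss of Sfrp1 and Sfrp2 together disturbs male sexual development.

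Sfrp2, its relative with a like function, fell. The Sfrp2 signal was 257.1 and 260.6 on the E11.5 arrays, 102.7 and 141.0 on the E12.5 arrays, 121.5 and 182.5 on the E14.5 arrays, 80.6 and 63.7 on the E16.5 arrays and 68.4 and 62.1 on the E18.5 arrays. The E11.5 arrays lay above all others, and E12.5 and E14.5 overlapped each other and lay above the later stages. Sfrp2 fell 3.39-fold over the whole period (-1.76 ± 0.21, adjusted p = 3.6e-05), the largest whole-period change among the tested members and one that was kept in every alternative that tested it. It fell 2.01-fold from E11.5 to E12.5 (-1.01 ± 0.21, adjusted p = 0.0177), 1.88-fold from E14.5 to E16.5 (-0.91 ± 0.21, adjusted p = 0.0172) and 1.56-fold from E12.5 to E16.5 (-0.64 ± 0.21, adjusted p = 0.0412). The fall from E11.5 to E12.5 was lost without E12.5 replicate 1 (0.183) or either E11.5 array (0.0838 and 0.0697) and without the filter (0.0641), and that from E14.5 to E16.5 without E14.5 replicate 2 (0.101) or E16.5 replicate 2 (0.184). The fall from E12.5 to E16.5 was lost without E12.5 replicate 2 (0.258), E16.5 replicate 1 (0.0630), E16.5 replicate 2 (0.261) or either E18.5 array (0.0509 and 0.0506), with a pseudocount of 64 (0.0502) and without the filter (0.0872).

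Sfrp4, another Sfrp, is known in the adult for its part in bone. The Sfrp4 signal was 103.9 and 113.2 on the E11.5 arrays, 98.5 and 123.3 on the E12.5 arrays, 166.8 and 169.2 on the E14.5 arrays, 135.3 and 160.4 on the E16.5 arrays and 158.1 and 184.3 on the E18.5 arrays. The 6 arrays from E14.5 on lay above the 4 earlier ones. Sfrp4 rose 1.5-fold over the whole period (0.59 ± 0.18, adjusted p = 0.0244). This call was lost without E11.5 replicate 1 (0.108), E18.5 replicate 1 (0.0502) or E18.5 replicate 2 (0.162), and the step from E12.5 to E14.5, at 0.54 ± 0.18, did not pass (adjusted p = 0.0916). Its change over the 5 stages (adjusted p = 0.0315) was lost without E11.5 replicate 1 (0.0647), E12.5 replicate 1 (0.0876), either E14.5 array (0.0565 and 0.0527), E16.5 replicate 2 (0.0572) or E18.5 replicate 2 (0.0819), without the filter (0.0655) and after quantile normalization (0.0752).

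Frzb, the Sfrp first known from cartilage, fell 2.16-fold over the whole period (-1.11 ± 0.26, adjusted p = 0.00561). The Frzb signal was 81.4 and 102.3 on the E11.5 arrays, 56.9 and 44.3 on the E12.5 arrays, 61.3 and 49.0 on the E14.5 arrays, 40.2 and 36.1 on the E16.5 arrays and 24.9 and 44.4 on the E18.5 arrays. The E11.5 arrays were the highest, the later stages overlapped in part, and E18.5 replicate 1 was the lowest. The call was lost without E18.5 replicate 1 (0.0732). Its change over the 5 stages (adjusted p = 0.0251) was lost without either E11.5 array (0.0536 and 0.122), either E16.5 array (0.0525 and 0.0622) or E18.5 replicate 1 (0.0527) and without the filter (0.0543).

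Dkk3 is the Dickkopf family member that differs most from the rest and is not a plain blocker of Lrp6. The Dkk3 signal was 50.8 and 57.2 on the E11.5 arrays, 68.8 and 55.1 on the E12.5 arrays, 148.3 and 99.4 on the E14.5 arrays, 154.6 and 119.4 on the E16.5 arrays and 115.5 and 99 on the E18.5 arrays. The 6 arrays from E14.5 on lay above the 4 earlier ones. Dkk3 rose 1.96-fold from E12.5 to E16.5 (0.97 ± 0.22, adjusted p = 0.00584) and 1.76-fold over the whole period (0.81 ± 0.22, adjusted p = 0.0137). The former was lost without E16.5 replicate 1 (0.0657) and the latter without E11.5 replicate 1 (0.0748) or E18.5 replicate 1 (0.0981). The rise of 1.77-fold from E12.5 to E14.5 (0.83 ± 0.22, adjusted p = 0.0459) was lost without either E12.5 array (0.145 and 0.173), E14.5 replicate 1 (0.326), either E16.5 array (0.0670 and 0.0647) or either E18.5 array (0.0627 and 0.0617). It was also lost without the filter (0.0931), after quantile normalization (0.114), with the mean of probe sets (0.0750) and with the 2 stages alone (0.0687).

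Sfrp5, the last tested antagonist, ran from 32.8 to 70.0 with a median of 61.8 and did not pass (adjusted p = 0.50). Within the Sfrp and Dkk families, then, Sfrp1, Sfrp4 and Dkk3 rose over the whole period while Sfrp2, Frzb and Dkk1 fell. Most genes called had further probe sets, and in 20 of 21 called contrasts of such genes every other probe set had the same sign, Sfrp1 over the whole period being the exception.

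The 20 members below the filter had array values between 0.6 and 81.8, and for 13 of them every array lay under the filter's signal of 49.1. They were 11 ligands (Wnt1, Wnt2, Wnt2b, Wnt3, Wnt3a, Wnt8a, Wnt8b, Wnt9b, Wnt10a, Wnt10b and Wnt16), the receptors Fzd6, Fzd9 and Lrp5, Rspo2 and Rspo4, and the antagonists Dkk2, Dkk4, Dkkl1 and Wif1. Dkkl1, known from later spermatogenesis, never exceeded 5.5, and Wnt9b, a ligand of the nephric duct, lay between 13.2 and 39.8. Wnt16 stayed between 2.3 and 14.1 and Wif1 between 6.3 and 26.1. At such signals a value near 0 gives no level, and Mouse430_2 probe sets differ in how well they bind.

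In a fit of all genes with no filter, 3802 of all 18193 genes passed over the 5 stages. Of the 20 dim members, Wnt1, Wnt2b, Wnt3a and Wnt8a were among them, a share near that of all genes, bright ones included. The share among the genes below the filter alone was not counted. This fit called 482 genes from E12.5 to E14.5, 1022 from E14.5 to E16.5 and 2814 from E12.5 to E16.5. The Wnt2b signal was 29.7 and 30.2 on the E11.5 arrays, 45.2 and 34.1 on the E12.5 arrays, 7.1 and 6.8 on the E14.5 arrays, 20.1 and 10.9 on the E16.5 arrays and 9.8 and 16.7 on the E18.5 arrays. The E14.5 arrays were the lowest, and the E11.5 and E12.5 arrays were all above the later ones. Wnt2b fell from E12.5 to E14.5 (-1.27, adjusted p = 0.0228) and stayed called after quantile normalization (-1.45, adjusted p = 0.0182). It was also lower at E16.5 than at E12.5 (-0.83, adjusted p = 0.0392). The Wnt8a signal was 9.9 and 24.8 on the E11.5 arrays, 7.0 and 9.8 on the E12.5 arrays, 64.8 and 54.2 on the E14.5 arrays, 27.5 and 26.5 on the E16.5 arrays and 10.8 and 25.1 on the E18.5 arrays. Both E14.5 arrays lay above every other array. Wnt8a rose from E12.5 to E14.5 (1.63, adjusted p = 0.0181), also after quantile normalization (1.39, adjusted p = 0.0395). Wnt1 and Wnt3a were highest at E14.5 too, at 23.5 and 21.6 and at 70.1 and 64.6, but their change over the stages was lost with quantile normalization (adjusted p = 0.103 and 0.0624), as was the fall of Wnt1 from E14.5 to E16.5 (-0.86, adjusted p = 0.0474, and 0.0686 after normalization). The arrays of E14.5 had the highest median signals, 57.7 and 47.1, and of all 7277 genes below the filter 41.7% had their highest mean at E14.5, as did 8 of the 20 dim members, or 40%. Of the 24 tested members 8, or 33.3%, had their highest mean at E14.5, and of all tested genes 17.4%.

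Other genes of the pathway were followed in 4 lists, some of which share genes. The lists were chosen with earlier results of these data known, so their shares beside those of all genes are descriptive only. Among genes for Wnt secretion, receptor turnover and co-receptors, 4 of 14 tested changed over the 5 stages, against 34.7% of all tested genes. The Lgr4 signal was 2919.3 and 2970.6 on the E11.5 arrays, 2966.3 and 2798.4 on the E12.5 arrays, 1718.9 and 1810.8 on the E14.5 arrays, 1293.1 and 1202.5 on the E16.5 arrays and 1172.9 and 909.9 on the E18.5 arrays. Lgr4, a receptor for R-spondins, was level up to E12.5 and lower on both arrays of each later stage. It fell by 1.5 on the log2 scale over the whole period (adjusted p = 1.3e-05) and by 1.20 from E12.5 to E16.5 (adjusted p = 0.000164). With the mean of the gene's probe sets the whole-period change was -0.64 (adjusted p = 0.00716), a smaller fall that still passed. Gpc3, a cell-surface proteoglycan, fell by 1.05 over the whole period (adjusted p = 0.00143). Its relative Gpc4 rose by 0.67 (adjusted p = 0.0158), which did not hold without E11.5 replicate 1 (0.105) or E18.5 replicate 2 (0.121). Ror2, a receptor for Wnt5a, rose by 0.88 over the whole period, from 60.4 and 67.0 to 121.2 and 140.3 (adjusted p = 0.00424). Wls, which carries Wnts to the cell surface, fell by 0.52 from E12.5 to E16.5 (adjusted p = 0.0460), a call lost in 10 of 20 alternatives, with adjusted p up to 0.263. Over the 5 stages Wls did not pass (adjusted p = 0.160) except with the mean of probe sets (0.0489), and Porcn, which adds the lipid of Wnts, did not pass (adjusted p = 0.892).

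Among feedback and target genes of beta-catenin, 6 of 10 tested genes changed over the 5 stages, against 34.7% of all tested genes. Over the whole period 5 fell and 1 rose, against 11% of all genes called lower and 17.1% called higher. The median log2 change of these 10 was -0.61, and that of all tested genes was 0.02. Since this list too was chosen with earlier results of these data known, these figures describe it and do not test it. The Tnfrsf19 signal was 521.4 and 458.9 on the E11.5 arrays, 184.1 and 93.8 on the E12.5 arrays, 61.0 and 76.7 on the E14.5 arrays, 49.4 and 40.9 on the E16.5 arrays and 58.5 and 52.2 on the E18.5 arrays. The step from E11.5 to E12.5 was the largest for this gene, a receptor also called Troy, at -1.77 (adjusted p = 0.00103), and the whole-period change was -2.83 (adjusted p = 1.5e-06), or -2.12 with the mean of probe sets, the smallest change among the alternatives run. The Lef1 signal was 303.5 and 212.5 on the E11.5 arrays, 124.5 and 105.3 on the E12.5 arrays, 55.3 and 69.7 on the E14.5 arrays, 77.4 and 83.1 on the E16.5 arrays and 40 and 46.5 on the E18.5 arrays. Lef1, itself a nuclear partner of beta-catenin, fell by 2.19 over the whole period (adjusted p = 3.4e-06), and the change was -1.57 with a pseudocount of 64. Its fall by 1.05 from E11.5 to E12.5 (adjusted p = 0.0125) was lost without E12.5 replicate 2 (0.130) or E11.5 replicate 1 (0.122) and with the 2 stages alone (0.0565).

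Axin2, the target most often used to read beta-catenin activity, stayed near its first level until late. The Axin2 signal was 170.0 and 175.5 on the E11.5 arrays, 154.4 and 154.1 on the E12.5 arrays, 144.7 and 175.1 on the E14.5 arrays, 146.9 and 129.2 on the E16.5 arrays and 107.9 and 93.1 on the E18.5 arrays. Only the E18.5 arrays lay below the range of all earlier ones. Axin2 fell by 0.70 over the whole period (adjusted p = 0.00754), which did not hold without E18.5 replicate 2 (0.0702) and with the mean of probe sets (0.0674). Its change over the 5 stages (adjusted p = 0.0333) was lost without either array of E12.5 (0.0606 and 0.0555), E16.5 (0.0543 and 0.0604) or E18.5 (0.0843 and 0.213), without the filter (0.0646) and with the mean of probe sets (0.241). Nkd1, an inhibitor inside the cell, fell by 0.92 (adjusted p = 0.00989), which was lost without E11.5 replicate 1 (0.0861) or E18.5 replicate 2 (0.103). Over the 5 stages Nkd1 (adjusted p = 0.0233) was lost without E11.5 replicate 1 (0.0974) or E16.5 replicate 2 (0.0612) and without the filter (0.0662). Its relative Nkd2 rose by 1.26, from 22.7 and 35.8 to 87.3 and 95.2 (adjusted p = 0.00126), and by 0.66 with the mean of probe sets. Ccnd1, which codes for cyclin D1, is also regulated by many other signals and fell by 1.18 (adjusted p = 0.000174).

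**Figure D4:**
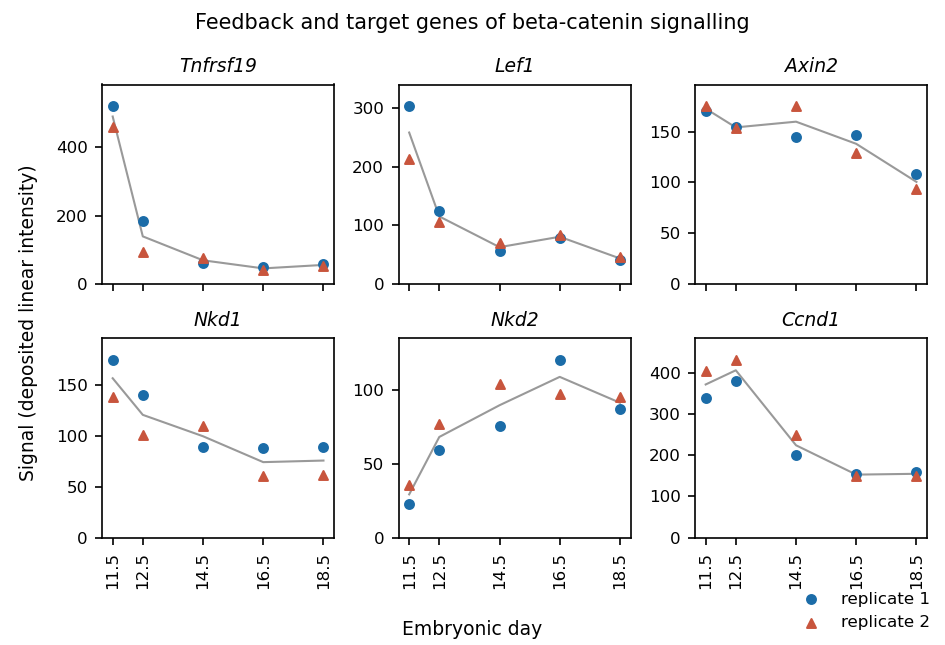
Deposited signal (linear, from 0) against embryonic day for the 6 feedback and target genes that changed over the 5 stages, with circles for replicate 1, triangles for replicate 2 and a line through the stage means. Tnfrsf19 and Lef1 drop between E11.5 and E12.5, Axin2 is lowest at E18.5, and Nkd2 alone is lowest at E11.5.

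In the beta-catenin cascade inside the cell, 3 of 16 tested genes changed over the 5 stages, against the same 34.7% of all tested genes. Dvl1, which relays the Frizzled signal, rose by 1.15 over the whole period, from 267.5 and 196.5 to 540.1 and 516.4 (adjusted p = 0.000271). Tcf7l2 rose by 0.68 (adjusted p = 0.0388), which did not hold without E11.5 replicate 1 (0.326), E16.5 replicate 1 (0.0511), E16.5 replicate 2 (0.0517), E18.5 replicate 1 (0.151) or E18.5 replicate 2 (0.113), without the filter (0.0839), after quantile normalization (0.0634), with the mean of probe sets (0.277) and with the 2 stages alone (0.0511). Its change over the 5 stages (0.0214) was lost without E16.5 replicate 2 (0.0584) or either E18.5 array (0.0750 and 0.0629), without the filter (0.0612) and with the mean of probe sets (0.342). The remaining gene was Lef1. Ctnnb1, the gene of beta-catenin, did not pass over the 5 stages (adjusted p = 0.391). In the planar polarity branch, 3 of 11 tested genes changed over the 5 stages, against 34.7% of all tested genes, and these 3 rose over the whole period, in which 17.1% of all genes were called higher. They were Fat4 (1.34, adjusted p = 0.00238), Prickle2 (1.22, adjusted p = 0.000893) and Prickle1 (0.72, adjusted p = 0.00717), the last lost without E18.5 replicate 2 (0.0770) and with the mean of probe sets (0.0897). Over the 5 stages Prickle1 was lost without E11.5 replicate 2 (0.0837) or E16.5 replicate 2 (0.0593) and with the mean of probe sets (0.195). The whole-period rise of Fat4 became 0.39 and was lost when probe sets ending in _x_at or _s_at were left out (adjusted p = 0.202).

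The cell types of the testis changed over the same stages. The summed signal of 5 surface epithelium markers lay between 2906 and 4113 up to E12.5, was 2177 and 2429 on the E14.5 arrays and lay between 1369 and 1885 afterwards. In this list, which contains Lhx9 and Upk3b, all 4 tested genes fell from E12.5 to E16.5, against 10.2% of all genes, the comparison in which Dkk1, Wnt11, Wnt5b, Fzd4 and Sfrp2 fell. The remaining marker, Msln, was too dim to be tested and went the other way, with means of 18.4 at E12.5 and 31.6 at E16.5. Lhx9 had the highest mean of the list, 1973 at E12.5 and 1140 at E14.5. From E12.5 to E14.5 only Lhx9 was called lower. The 5 smooth and peritubular muscle markers summed to between 1802 and 2279 up to E12.5 and to between 6280 and 7283 from E14.5 on. All 4 tested genes rose from E12.5 to E14.5, against 3.53% of all genes, as Sfrp1 and Dkk3 did. Myl9, with the highest mean of the list at E11.5 (1398), was called lower at E12.5 (735), against 1.32% of all genes. Its E14.5 mean of 1387 was near that of E11.5, and over the whole period only Acta2, Myh11 and Tagln were called higher. The 8 Sertoli markers rose in 6 genes from E11.5 to E12.5, against 1.95% of all genes, as Dkk1 and Wnt5a did. Sox9 and Fgf9 were not called in that step, and the Sox9 mean was lower at E12.5. The 4 fetal Leydig markers with a probe set summed to at most 280.5 up to E12.5 and at least 6360 from E14.5 on. The 4 erythroid markers with a probe set summed to 15737 and 11460 at E11.5 and to 281 and 205 at E18.5. Nearly all of the E11.5 sum came from the embryonic globins Hba-x and Hbb-bh1, whose means there were 6770 and 6667. Alas2, the erythroid enzyme of heme synthesis, did not follow them, rising from E14.5 to E16.5 (means 229 and 584, adjusted p = 0.00142) and falling again to E18.5 (mean 209, adjusted p = 0.0249). Their part in the changes of the Wnt pathway genes was not tested.

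Markers of neighbouring tissues were measured as well. The 4 mesonephric tubule and duct markers with a probe set summed to between 76.2 and 191.4 on the 10 arrays, with no trend called in the 1 tested gene, and Gata3 lay between 1.8 and 5.6. The 4 neural and glial markers summed to between 193 and 359. Skeletal muscle markers summed to 629.6 and 623.0 at E14.5 and to between 173.5 and 316.6 at the other stages. Among other cells of the testis, endothelial markers summed to between 436 and 1118, macrophage and leukocyte markers to between 434 and 889, and interstitial markers to between 5155 and 8420. Germ cell markers summed to between 1303 and 5676 with the top at E14.5, where Dppa3 and Dazl had their highest means. Ddx4, Mael and Dnd1 had theirs at E16.5 and Pou5f1 at E12.5.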

How the data were processed

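RNA of embryonic mouse testis was hybridised to Affymetrix Mouse430_2 arrays after single-cycle labelling, per the labels' protocols. The deposited table holds 1 linear signal intensity per probe set and array, 45101 probe sets on 10 arrays; its software: not given in the sources used here. On every array the trimmed mean (2% at each end) was 125, so the deposited values were already scaled, and no background correction was applied here. The deposited array headers gave scanning day and fluidics module and no measurement.

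Probe sets were named through GEO's platform annotation and RefSeq: 34945 had 1 gene, 932 several and 9160 none, and 64 were controls. Signals were analysed as log2(signal + 16), with the brightest probe set of each gene. Genes under the 40th percentile of mean value (signal 49.1) were left out, leaving 10916. A stage model was fitted to all 10 arrays with limma 3.58.1 in R 4.3.3 (lmFit, eBayes with trend), with 5 residual degrees of freedom and a median of 8.59 added by the shared variance estimate. The threshold was 0.05 after Benjamini-Hochberg adjustment over all tested genes, two-sided. The 2 arrays of a stage limit the precision of each value. The code was checked on simulated data.

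Members, pathway lists and marker lists were chosen with earlier results of these data known. By rule, members called over the 5 stages or in a contrast are given with all array values, the others by range; pathway genes called in a contrast may be named. Alternatives were 2 other pseudocounts, 2 other filters, quantile normalization, other probe set choices, no variance trend, blocks for replicate number or fluidics module, 2-stage fits and leaving out each array. Quantile normalization with no filter, for the dim members, was added after seeing the data. Signals of different probe sets were not set against each other, since each binds with its own strength.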

Additional observations from a re-analysis of the deposited data

How the results depend on the processing

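No member call changed direction under any alternative run. Of the 42 member calls (13 over the 5 stages and 29 in contrasts), 17 were kept in all of them and 25 were lost without at least 1 array. Without 1 array a stage has a lone array, assumed to vary like the other stages. Leaving out each array in turn gave 2717 to 4146 genes over the 5 stages (main count 3783) and 9 to 13 members. It gave 148 to 368 genes (357) and 0 to 3 members from E11.5 to E12.5, and 183 to 838 (574) and 1 to 2 from E12.5 to E14.5. From E14.5 to E16.5 it gave 168 to 1436 (1181) and 1 to 7, the lowest of both without E16.5 replicate 2. From E16.5 to E18.5 it gave 0 to 4 (2) and 0 members, over the whole period 1943 to 3291 (3076) and 6 to 10, and from E12.5 to E16.5 1204 to 3299 (2954) and 4 to 8.

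A 60th percentile filter, which tests fewer genes, left 6 members over the 5 stages, 1, 1 and 2 in the first 3 steps, 3 over the whole period and 3 from E12.5 to E16.5, with 365 genes from E12.5 to E14.5. With no filter, 1 member was called from E11.5 to E12.5. With the arrays of the 2 stages alone, 158 genes were called from E11.5 to E12.5 and 1 member from E12.5 to E14.5. For the step from E16.5 to E18.5, the 2 genes became 13 with a pseudocount of 64, 0 with no filter or no variance trend, 5 with the 60th percentile filter, without _x_at and _s_at probe sets or with the 2 stages alone, 4 with the mean of probe sets and 16 with a fluidics module block. The module block gave 566 genes from E11.5 to E12.5 and 1003 from E12.5 to E14.5, and could not be fitted across module pairs. Scanning day could not be a block. The cause of these shifts was not tested.

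Replicate numbers were not taken as pairs, since the labels tie them to nothing shared. Deviations from stage means correlated positively between same-numbered arrays in all 10 pairs of stages, at 0.0044 to 0.366, and 4 of these correlations were under 0.1. Replicate 1 ran on modules 1 and 3 and replicate 2 on modules 2 and 4, so number and module cannot be told apart. With a replicate block, 898 genes were called from E12.5 to E14.5, 1783 from E14.5 to E16.5 and 4 from E16.5 to E18.5. It ended no member call, and Lrp6 passed with it from E14.5 to E16.5 (adjusted p = 0.0254) and from E12.5 to E16.5 (0.0484). With 2 arrays a stage, a change that did not pass is not shown to be absent, least of all for the 20 dim members.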
